A study of Homo sapiens with 12 samples.

Results

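The ABC transporters, a family of membrane pumps that includes the drug efflux pumps, were followed in human MCF10AT cells in which EP300 was knocked down. The members were 30 family genes outside the MHC region, given by symbol, and the rule that picks them uses no measured value. They were matched to 32 of the 29094 RefSeq accession rows of the count table. A row with enough counts for a test was present for 25 of the 30 genes, and 13424 rows of the table were tested in all. MCF10AT is a line of immortalised human mammary epithelial cells transformed by an activated HRAS allele, G12V, and EP300 encodes the histone acetyltransferase p300. RNA sequencing covered 12 libraries in 4 groups of 3: EP300 KD1 and EP300 KD2, each with its own EP300 shRNA, and the non-silencing controls NS1 and NS2. Each hairpin was compared with the control of the same number, so the 2 comparisons share no library. Cells of all groups carried HRAS G12V and a lentiviral shRNA, had passed puromycin selection, and were grown with horse serum, epidermal growth factor, insulin, cholera toxin and hydrocortisone. Whether each line is a pool or a clone, and whether its 3 libraries came from separate cultures, is not given in the sources used here, so p-values describe how far these libraries spread, and that spread may be technical.

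ABC proteins bind and hydrolyse ATP on a conserved nucleotide-binding cassette, and most use that energy to move lipids, sterols, peptides, conjugated metabolites or drugs across a membrane. P-glycoprotein (ABCB1), the multidrug resistance proteins of subfamily C and the breast cancer resistance protein ABCG2 export drugs from epithelial cells, while ABCA1 and ABCG1 export cholesterol and are classic targets of the liver X receptors. Subfamilies E and F keep the ATP-binding cassettes but have no membrane part and act on ribosomes.

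Library totals lay between 31396653 and 35024772 counts in EP300 KD1, 32674926 and 45606950 in NS1, 31582157 and 40700951 in EP300 KD2, and 32112613 and 33951970 in NS2. A floor of 3 counts corresponds to 0.0662 to 0.0963 CPM (counts per 1e6 counts of the TMM-scaled library) across the 12 libraries, and covers counting error only. EP300 itself averaged 107 ± 0.884 CPM in EP300 KD1 and 172 ± 5.11 CPM in NS1, a log2 change of -0.68 ± 0.03. In EP300 KD2 it averaged 95.8 ± 3.87 CPM, against 174 ± 8.14 CPM in NS2, a log2 change of -0.86 ± 0.04. Here and below, means carry the SD of 3 libraries, log2 changes carry their standard error (SE), and adjusted p comes from edgeR's quasi-likelihood test with Benjamini-Hochberg adjustment over all 13424 rows. "Rose" and "fell" are used of adjusted p under 0.05.

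Promoter sequences are shown for 4 members on which the results below turn, chosen after their values were seen: ABCA1, a sterol exporter with a known liver X receptor element, and the efflux pumps ABCG2, ABCC4 and ABCC2. Each is the 250 bases upstream of a gene start in RefSeq (GRCh38.p14), read 5′ to 3′ on the gene's strand, all from the minus strand except ABCC2. They lie at chr9:104928156-104928405 (ABCA1), chr4:88231627-88231876 (ABCG2), chr13:95301452-95301701 (ABCC4) and chr10:99782390-99782639 (ABCC2). Capitals mark an E-box (CACGTG) and a relaxed direct repeat (GGTNA, 5 bases of any kind, then GGTCA, here on the opposite strand) in ABCA1, and the core of an antioxidant response element (TGACNNNGC, here on the opposite strand) in ABCC4.
ABCA1: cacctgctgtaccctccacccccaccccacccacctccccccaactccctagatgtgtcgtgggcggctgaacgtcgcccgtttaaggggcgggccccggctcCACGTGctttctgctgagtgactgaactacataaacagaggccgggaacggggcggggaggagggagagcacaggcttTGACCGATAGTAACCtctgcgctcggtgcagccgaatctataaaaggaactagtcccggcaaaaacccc
ABCG2: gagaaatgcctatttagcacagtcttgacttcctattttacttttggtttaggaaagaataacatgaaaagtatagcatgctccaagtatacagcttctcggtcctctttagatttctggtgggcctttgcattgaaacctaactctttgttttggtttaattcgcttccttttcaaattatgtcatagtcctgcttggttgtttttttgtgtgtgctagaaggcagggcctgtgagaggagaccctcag
ABCC4: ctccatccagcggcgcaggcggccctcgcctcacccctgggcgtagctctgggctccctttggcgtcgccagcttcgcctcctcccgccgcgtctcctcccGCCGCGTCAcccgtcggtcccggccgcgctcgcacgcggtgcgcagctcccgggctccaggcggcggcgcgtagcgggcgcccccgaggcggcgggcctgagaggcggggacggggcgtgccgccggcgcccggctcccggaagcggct
ABCC2: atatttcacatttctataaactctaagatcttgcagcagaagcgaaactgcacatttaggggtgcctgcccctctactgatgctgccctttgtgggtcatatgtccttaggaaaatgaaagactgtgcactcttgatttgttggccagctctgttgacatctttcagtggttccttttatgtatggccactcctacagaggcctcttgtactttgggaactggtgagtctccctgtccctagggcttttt
The ABCC4 window held 80.4% G and C and 42 CpG, the ABCA1 window 61.6% and 16 CpG, the ABCC2 window 45.6% and 1 CpG, and the ABCG2 window 40.0% and 2 CpG. In ABCG2, for which RefSeq lists 5 such windows, the one shown starts 304 bases from the start of the accession that was counted.

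Of the 30 members, 24 had a promoter in this RefSeq set, and both strands of the 250 upstream bases were searched. The other members, ABCA4, ABCA8, ABCB4, ABCC1, ABCC3 and ABCG1, were not searched. Each member has 1 window here, while a gene can have several among all promoters. The windows of ABCA5 and ABCC9 lie 11708 and 4752 bases from the start of the transcript that was counted. The relaxed direct repeat was present in 1 of 24 (ABCA1) and in 0.216% of 35116 promoters, and the strict form, AGGTCA repeated after 4 bases of any kind, in 0 of 24 and in 0.0142%. ABCA1 was already known to carry a liver X receptor element, so its match is not an independent result of the search. In ABCA1 the repeat lay at -69 to -55 from the gene start and the E-box at -147 to -142, with no shared base. An E-box was found in 4 of 24 members (ABCA1, ABCA12, ABCB6 and ABCC10) and in 6.34% of all promoters. The antioxidant core was found in 5 of 24 (ABCA3, ABCB6, ABCC4, ABCC10 and ABCD4) and in 10.9% of all, and lay at -149 to -141 in ABCC4. The xenobiotic response core TNGCGTG was found in ABCA2 and in 4.52% of all promoters, the AP-1 element TGANTCA in 0 of 24 and in 6.57%, and the GC box GGGCGG in 15 of 24 and in 42.6%. In ABCB6 the E-box and the antioxidant core share bases. These matches describe letters only.

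Most tested members changed with each hairpin, and more fell than rose. With EP300 KD1 against NS1, 18 of 25 members passed the threshold, 5 higher and 13 lower, against 64.9% of all tested rows (32.6% higher and 32.3% lower). Upper-quartile scaling gave 8 higher and 12 lower members in this comparison, and the 5 higher members became 3 without NS1 replicate 3, EP300 KD1 replicate 1 or EP300 KD1 replicate 2. With EP300 KD2 against NS2, 19 of 25 passed, 6 higher and 13 lower, against 57.8% of all rows (27.9% higher and 29.9% lower). Of all rows called in that comparison, 48.2% were higher with TMM scaling and 61.3% with library totals alone, where 7 members were higher and 13 lower. The median log2 change of the members was -0.09 with EP300 KD1, beside -0.01 over all rows, and -0.24 with EP300 KD2, beside -0.00 over all rows. The median size of change, without sign, was 0.32 in members and 0.24 in all rows with EP300 KD1, and 0.39 in members and 0.20 in all rows with EP300 KD2. A change of at least 2-fold was called for 6 members with EP300 KD1 (2 higher, 4 lower, 10.2% of all rows). With EP300 KD2 it was called for 7 (1 higher, 6 lower, 8.08% of all rows). ABCA4 and ABCA13, which met the low-count filter through control libraries, are among the lower members in both comparisons, also at 2-fold. The other members lower by at least 2-fold were ABCG1 and ABCG2 with EP300 KD1, and ABCA1, ABCG1, ABCC2 and ABCG2 with EP300 KD2. A minimum mean of 1 CPM, which drops ABCA4, ABCA13 and ABCD4, left 10 members lower with EP300 KD1 and 11 with EP300 KD2. Under that filter the median log2 change of the members was -0.06 with EP300 KD1 and -0.19 with EP300 KD2.

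Called lower with both hairpins were 11 of the 25 members: ABCA1, ABCA4, ABCA7, ABCA13, ABCG1, ABCC2, ABCC3, ABCC10, ABCG2, ABCB6 and ABCD3. Over all rows 17.3% were called lower with both. Of these members, ABCA4 and ABCA13 had very low counts and met the low-count filter through their control libraries. ABCA3 and ABCC4 were higher with both (15.3% of all rows), and ABCA2 and ABCE1 passed the test in opposite directions (11.2% of all rows). The KD1 comparison alone passed for ABCA5, ABCB8 and ABCB9, the KD2 comparison alone for ABCC1, ABCC5, ABCB10 and ABCF2, and neither for ABCA10, ABCD4 and ABCF3. The log2 change differed between the hairpins for 18 of 25 members, 8 with a higher and 10 with a lower value in KD2, against 50.8% of all rows (21.6% higher and 29.2% lower). For 1 member, ABCC2, that difference was called and at least 2-fold (5.71% of all rows). Counted by library, 6 members lay higher and 12 lower in all 3 EP300 KD1 libraries than in any NS1 library (33.9% and 33.8% of all rows). In EP300 KD2, 6 lay higher and 15 lower than every NS2 library (30.9% and 32.6%).

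**Figure D1:**
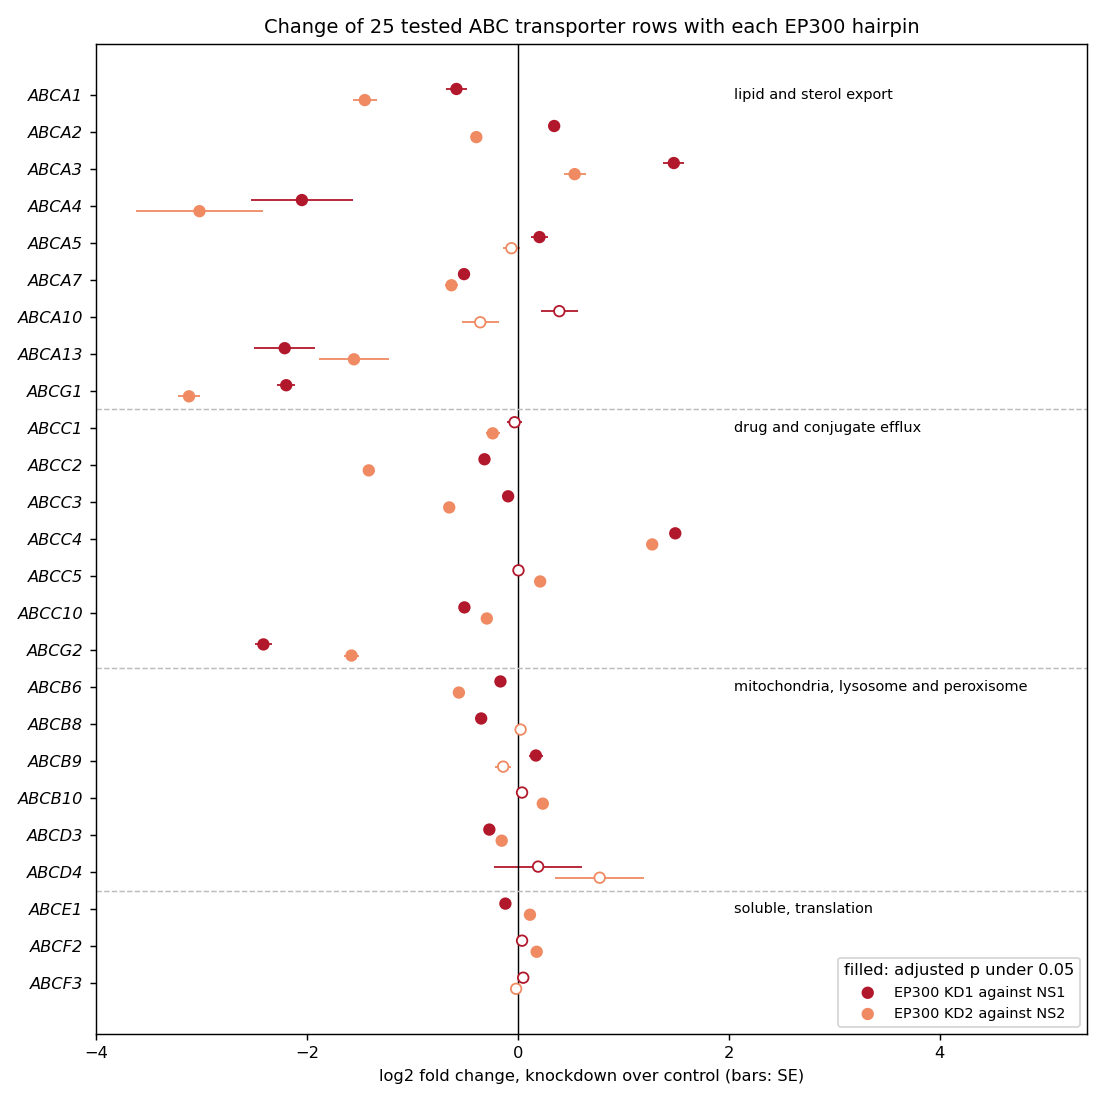
Log2 change of each of the 25 tested member rows with EP300 KD1 against NS1 (dark red) and EP300 KD2 against NS2 (orange), with SE bars, grouped by role. Filled points passed adjusted p under 0.05. ABCA4, ABCA13, ABCG1 and ABCG2 lie left of -1 with both hairpins (ABCA4 and ABCA13 at very low counts), and ABCC4 lies right of 1 with both.

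Among the drug and conjugate efflux pumps, ABCG2 fell, ABCC4 rose, and the remaining 5 tested pumps moved less or with 1 hairpin mainly. Summed over the 7 tested pumps, mRNA was 682 ± 24.2 CPM in EP300 KD1 and 746 ± 24.2 CPM in NS1, and 531 ± 17.6 CPM in EP300 KD2 and 805 ± 19.8 CPM in NS2. Most of that sum is ABCC3. With EP300 KD1, 1 of the 7 rose and 4 fell (32.6% and 32.3% of all rows), and with EP300 KD2, 2 rose and 5 fell (27.9% and 29.9%).

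ABCG2, which exports many anticancer drugs as well as urate and porphyrins, had 3.43, 3.50 and 3.89 CPM in EP300 KD1, against 18.0, 19.7 and 20.0 CPM in NS1. It measured 6.16, 5.63 and 5.31 CPM in EP300 KD2, against 17.9, 16.3 and 17.1 CPM in NS2. Every knockdown library lay far below every control library. The log2 change was -2.41 ± 0.08 with EP300 KD1 (adjusted p = 2.7e-15) and -1.58 ± 0.07 with EP300 KD2 (adjusted p = 7.8e-13), which leaves 0.188 and 0.335 of the control level. The fall was smaller with EP300 KD2, by a difference of 0.84 ± 0.11 in log2 change (adjusted p = 3.5e-06). NS2 and NS1 were not shown to differ for ABCG2 (-0.17 ± 0.07, adjusted p = 0.059). This gene lies on chromosome 4, at 88090264 to 88231626.

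ABCC4 (MRP4), an exporter of cyclic nucleotides, prostaglandins and nucleoside analogues, was the one efflux pump that rose with both hairpins beyond 2-fold. Its values were 36.5, 36.3 and 38.4 CPM in EP300 KD1, against 12.7, 13.6 and 13.2 CPM in NS1. EP300 KD2 had 36.6, 34.8 and 38.2 CPM, against 15.2, 14.2 and 15.9 CPM in NS2. The 6 knockdown libraries fell in one narrow range above both controls. The log2 change was 1.49 ± 0.05 with EP300 KD1 (2.81-fold, adjusted p = 2.7e-15) and 1.27 ± 0.05 with EP300 KD2 (2.42-fold, adjusted p = 3.3e-14). The difference between the hairpins was -0.22 ± 0.07 (adjusted p = 0.013), and NS2 was itself 0.20 ± 0.05 above NS1 (adjusted p = 0.011). The difference between hairpins no longer passed without NS2 replicate 3 (-0.18, adjusted p = 0.053), with DESeq2 (0.061), with no low-count filter (0.076) or with library totals (0.079). ABCC4 lies on chromosome 13, at 95019835 to 95301451.

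ABCC2 (MRP2), which exports glucuronide and glutathione conjugates at the apical membrane, fell with both hairpins but by very different amounts. It had 104, 101 and 99.2 CPM in EP300 KD1, against 121, 133 and 125 CPM in NS1. With the second hairpin it had 48.4, 49.3 and 46.9 CPM in EP300 KD2, against 127, 128 and 130 CPM in NS2. The groups did not overlap in either comparison, and EP300 KD2 lay below all other libraries. This gave a log2 change of -0.32 ± 0.03 with EP300 KD1 (adjusted p = 8.6e-08) and -1.41 ± 0.04 with EP300 KD2 (adjusted p = 7.7e-17), and the difference between them was -1.10 ± 0.05 (adjusted p = 1.4e-12).

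ABCC3 (MRP3), which exports conjugates and bile acids at the basolateral membrane, had the highest level of the pumps. It had 450, 468 and 426 CPM in EP300 KD1, against 477, 495 and 462 CPM in NS1. Values in EP300 KD2 were 359, 351 and 328 CPM, against 522, 556 and 554 CPM in NS2. The libraries of EP300 KD1 and NS1 overlapped, those of EP300 KD2 and NS2 did not. It fell by a log2 change of -0.65 ± 0.04 with EP300 KD2 (adjusted p = 2.2e-11). With EP300 KD1 it was -0.09 ± 0.04 (adjusted p = 0.037), a call that was lost without NS1 replicate 1 or 2 or without EP300 KD1 replicate 1 or 3 (adjusted p = 0.062 to 0.21), with upper-quartile scaling (0.11) and with a minimum mean of 1 CPM (0.052).

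ABCC10 (MRP7), known for transport of taxanes in transfected cells, had 38.6, 40.9 and 37.4 CPM in EP300 KD1, against 57.3, 55.5 and 53.6 CPM in NS1. EP300 KD2 had 43.3, 40.5 and 41.9 CPM, against 49.6, 51.8 and 52.9 CPM in NS2. No knockdown library reached its controls, and the log2 change was -0.51 ± 0.04 with EP300 KD1 (adjusted p = 1.9e-09) and -0.29 ± 0.04 with EP300 KD2 (adjusted p = 3.8e-06). Of its exon bases, 1.57% overlap DLK2 on the opposite strand. Libraries came from a stranded kit, but the strand setting of the counting is not given in the sources used here.

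ABCC1 (MRP1), which exports glutathione conjugates and anthracyclines, had 11.9, 12.6 and 12.02 CPM in EP300 KD1, against 12.6, 12.6 and 12.1 CPM in NS1. Values of 10.3, 11.98 and 10.1 CPM were found in EP300 KD2, against 13.0, 12.2 and 13.0 CPM in NS2. The first pair of groups overlapped (-0.03 ± 0.07, adjusted p = 0.70), and the second did not (-0.24 ± 0.07, adjusted p = 0.0057). The difference between these 2 changes was -0.21 ± 0.10 (adjusted p = 0.082), so a larger fall with EP300 KD2 was not shown. Without EP300 KD2 replicate 2 that difference passed (-0.29, adjusted p = 0.012).

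ABCC5 (MRP5), an exporter of cyclic nucleotides, had 38.6, 43.5 and 40.7 CPM in EP300 KD1, against 41.2, 42.8 and 38.8 CPM in NS1. EP300 KD2 had 43.8, 39.6 and 42.3 CPM, against 37.9, 34.8 and 36.0 CPM in NS2. Only the second pair separated, with a log2 change of 0.21 ± 0.05 (adjusted p = 0.0014), against 0.01 ± 0.05 in the first (adjusted p = 0.93). NS2 was lower than NS1 by a similar step (-0.17 ± 0.05, adjusted p = 0.016), and with both controls pooled the EP300 KD2 change did not pass (0.12, adjusted p = 0.11).

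ABCB1, the multidrug pump P-glycoprotein, had 0 to 3 counts in each of the 12 libraries, 11 in all, and could not be tested. ABCB4, which moves phosphatidylcholine into bile, had at most 2 counts per library. ABCC9, a regulatory subunit of ATP-sensitive potassium channels, and ABCA8 had at most 1, and ABCA12, a lipid transporter of the skin barrier, at most 4 over its 2 rows. A count near 0 in this table does not by itself show that a gene was silent. KRT8, a keratin of these epithelial cells, had a mean of at most 0.0353 CPM in any group in its coding row. ABCF1, a soluble family member outside the list, had at most 0.0105 CPM.

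**Figure D2:**
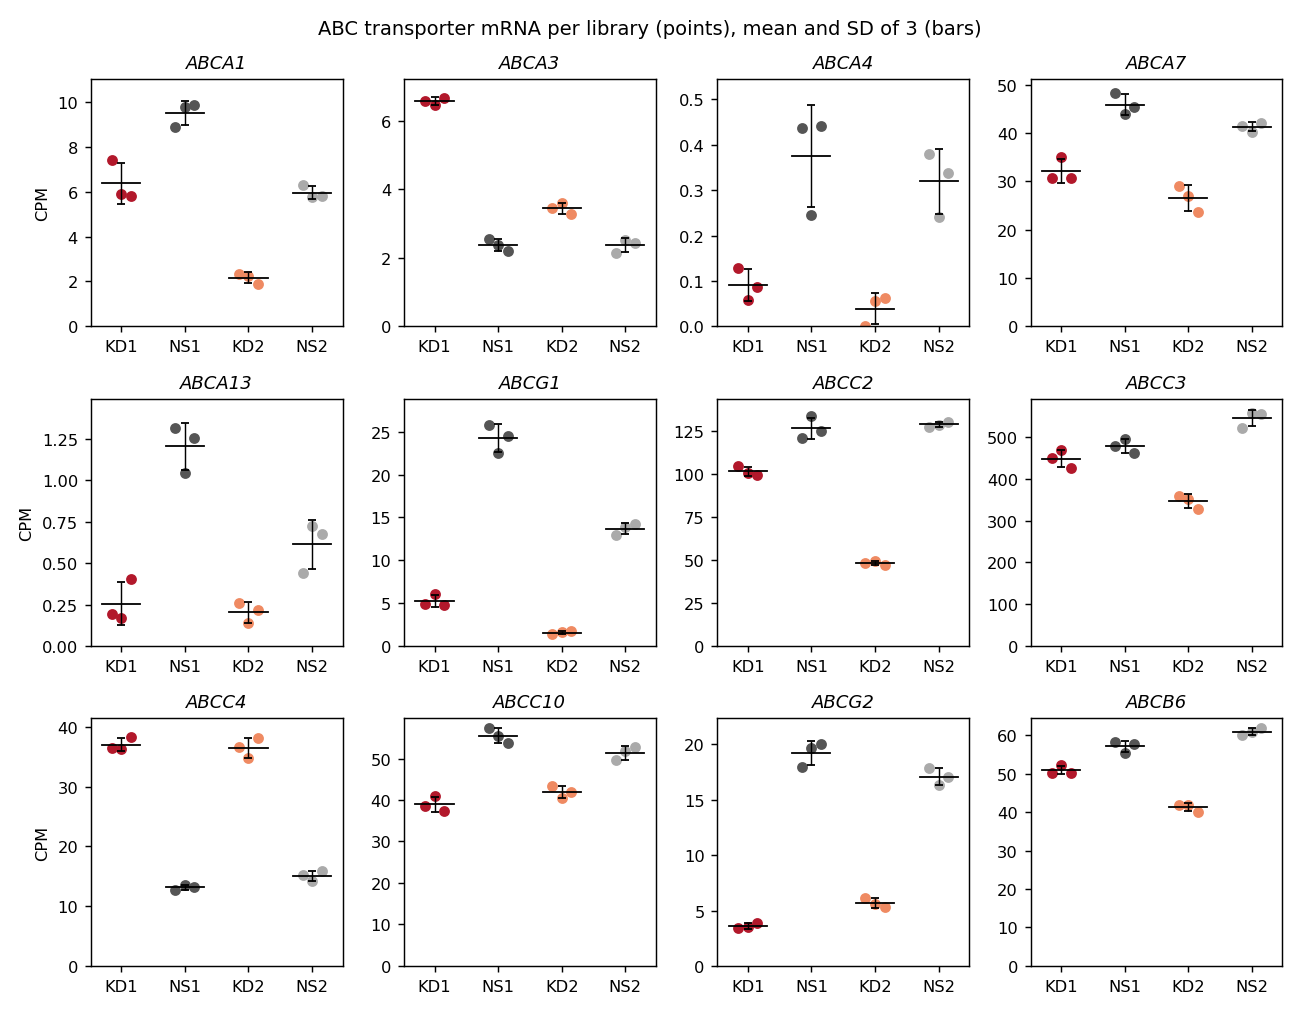
CPM of the 12 members called with an absolute log2 change of at least 0.5 with either hairpin, in each library (points), with the mean and SD of 3 libraries (bars); each panel has its own axis from 0. ABCG2 lies between 3.43 and 6.16 CPM in the 6 knockdown libraries and at 16.3 CPM or above in the controls, and ABCC4 at 34.8 CPM or above in knockdown and at 15.9 CPM or below in control libraries.

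Among the lipid and sterol exporters the cholesterol exporters fell with both hairpins. Of 9 tested genes, 5 fell and 3 rose with EP300 KD1 (32.3% and 32.6% of all rows), and 6 fell and 1 rose with EP300 KD2 (29.9% and 27.9%). ABCA4 and ABCA13, at very low counts, are among the genes that fell. The group's median log2 change was -0.51 with EP300 KD1 and -0.63 with EP300 KD2, with ABCA4 and ABCA13 included. Both genes lower these medians, and their being tested was tied to a higher control level. Of the other genes with EP300 KD1, ABCA2, ABCA3, ABCA5 and ABCA10 had positive values (0.34, 1.48, 0.20 and 0.39). ABCA1, ABCA7 and ABCG1 had negative ones (-0.58, -0.51 and -2.20). The median with EP300 KD1 is therefore not a fall shared by the group. The 2 control lines also differed, with NS2 below NS1 for 3 of these 9 genes and above it for 1 (13.4% and 14.2% of all rows).

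ABCG1, which passes cholesterol to high-density lipoprotein, had 4.94, 6.08 and 4.85 CPM in EP300 KD1, against 25.8, 22.6 and 24.5 CPM in NS1. Its level was 1.38, 1.62 and 1.76 CPM in EP300 KD2, against 13.0, 13.9 and 14.2 CPM in NS2. All knockdown libraries lay below all control libraries. The log2 change was -2.20 ± 0.09 with EP300 KD1 (adjusted p = 4e-14) and -3.12 ± 0.11 with EP300 KD2 (adjusted p = 6.9e-15), with a difference of -0.92 ± 0.14 between them (adjusted p = 2.7e-05). NS2 lay -0.83 ± 0.08 from NS1 (adjusted p = 2e-07), a smaller step than either hairpin change.

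ABCA1, which passes cholesterol and phospholipid to lipid-poor apolipoprotein A-I and whose promoter is printed above, had 7.41, 5.91 and 5.81 CPM in EP300 KD1, against 8.90, 9.81 and 9.87 CPM in NS1. EP300 KD2 had 2.36, 2.25 and 1.88 CPM, against 6.29, 5.78 and 5.81 CPM in NS2. Each knockdown group lay below its own control, but the EP300 KD1 libraries overlapped those of NS2. Log2 changes were -0.58 ± 0.10 with EP300 KD1 (adjusted p = 3.5e-05) and -1.45 ± 0.11 with EP300 KD2 (adjusted p = 2.1e-09). NS2 lay -0.68 ± 0.10 from NS1 (adjusted p = 4.4e-05), and with both controls pooled the EP300 KD1 change did not pass (-0.29, adjusted p = 0.19).

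ABCA3, which loads surfactant lipid into lamellar bodies in the lung, was low but rose with both hairpins. It had 6.58, 6.45 and 6.68 CPM in EP300 KD1, against 2.54, 2.37 and 2.18 CPM in NS1. The EP300 KD2 libraries had 3.45, 3.60 and 3.27 CPM, against 2.15, 2.53 and 2.43 CPM in NS2. No groups overlapped within a comparison, and NS2 and NS1 were at the same level (2.37 ± 0.197 and 2.36 ± 0.177 CPM). Log2 changes were 1.48 ± 0.10 with EP300 KD1 (adjusted p = 1.5e-10) and 0.54 ± 0.11 with EP300 KD2 (adjusted p = 0.00022), a difference of -0.94 ± 0.14 (adjusted p = 2.4e-05).

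ABCA2, an endolysosomal lipid transporter, moved in opposite directions. It averaged 124 ± 8.24 CPM in EP300 KD1 and 97.8 ± 3.99 CPM in NS1 (log2 change 0.34 ± 0.04, adjusted p = 1.3e-06). In EP300 KD2 it averaged 71.3 ± 4.16 CPM, against 93.8 ± 1.36 CPM in NS2 (-0.39 ± 0.05, adjusted p = 5.7e-07). The groups did not overlap in either comparison, NS2 and NS1 were not shown to differ (-0.06 ± 0.05, adjusted p = 0.35), and the hairpin difference was -0.74 ± 0.06 (adjusted p = 1.6e-08).

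ABCA7, a phospholipid transporter known as a risk gene for Alzheimer's disease, had 30.8, 35.1 and 30.7 CPM in EP300 KD1, against 48.3, 44.0 and 45.3 CPM in NS1. EP300 KD2 had 29.1, 26.9 and 23.7 CPM, against 41.5, 40.3 and 42.1 CPM in NS2. Both knockdown groups lay below both controls, with log2 changes of -0.51 ± 0.06 (adjusted p = 3.6e-07) and -0.63 ± 0.06 (adjusted p = 4.2e-08), and the hairpins were not shown to differ (-0.12 ± 0.09, adjusted p = 0.26).

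ABCA4 and ABCA13 were called lower with both hairpins at very low counts. Both met the low-count filter through their control libraries, so their being tested was itself tied to a higher control level. ABCA4, the retinoid transporter of photoreceptors, had 4, 2 and 3 counts in EP300 KD1, against 15, 8 and 20 in NS1 (log2 change -2.05 ± 0.48, adjusted p = 0.001). In EP300 KD2 it had 0, 2 and 2 counts, against 12, 8 and 11 in NS2 (adjusted p = 0.00026), and the size of that change is uncertain because the knockdown libraries lie under the floor of 3 counts. ABCA13, a very large member of the subfamily, had 6, 6 and 14 counts in EP300 KD1, against 45, 34 and 57 in NS1 (-2.21 ± 0.29, adjusted p = 1.6e-06). In EP300 KD2 it had 11, 5 and 7 counts, against 14, 24 and 22 in NS2 (-1.55 ± 0.33, adjusted p = 0.00056). Neither gene had a knockdown library that reached its own control, and NS2 lay -0.97 ± 0.24 from NS1 for ABCA13 (adjusted p = 0.0056).

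ABCA5 and ABCA10 are neighbours on chromosome 17. ABCA5, a lysosomal member, averaged 8.27 ± 0.445 CPM in EP300 KD1 and 7.16 ± 0.434 CPM in NS1 (0.20 ± 0.08, adjusted p = 0.031), and 8.03 ± 0.572 CPM in EP300 KD2 and 8.36 ± 0.379 CPM in NS2 (-0.06 ± 0.08, adjusted p = 0.53). The first call was lost without NS1 replicate 2 or 3, without EP300 KD1 replicate 1 or 2, with DESeq2 (adjusted p = 0.085) and with no low-count filter (0.07). With both controls pooled it was 0.09 (adjusted p = 0.36). ABCA10 passed in neither comparison (0.39 ± 0.18 and -0.36 ± 0.18, adjusted p = 0.059 and 0.093), while the difference between the hairpins did (-0.75 ± 0.25, adjusted p = 0.018). That difference did not pass without NS2 replicate 2, without EP300 KD2 replicate 1 or with DESeq2 (adjusted p = 0.095), and 5.0% of ABCA10's exon bases are shared with ABCA5 on the same strand, so the split of reads between them is uncertain. The ABCA10 change with EP300 KD1 passed without NS1 replicate 2 (0.50, adjusted p = 0.035), with upper-quartile scaling (0.41, adjusted p = 0.046) and with a minimum mean of 1 CPM (0.40, adjusted p = 0.047).

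Of the 6 tested transporters of mitochondria, lysosomes and peroxisomes, none was called at 2-fold or more with either hairpin. Over all rows 10.2% were with EP300 KD1 and 8.08% with EP300 KD2, so with 6 genes this is no departure. Their median size of change, without sign, was 0.18 with EP300 KD1 and 0.19 with EP300 KD2, against 0.24 and 0.20 over all rows. With EP300 KD1, 1 rose and 3 fell (32.6% and 32.3% of all rows), and with EP300 KD2, 1 rose and 2 fell (27.9% and 29.9%). ABCB6, which carries porphyrins, had 50.3, 52.2 and 50.3 CPM in EP300 KD1, against 58.2, 55.4 and 57.8 CPM in NS1. It had 41.8, 41.9 and 40.1 CPM in EP300 KD2, against 60.0, 60.9 and 61.8 CPM in NS2. All knockdown libraries were lower, with a log2 change of -0.17 ± 0.03 with EP300 KD1 (adjusted p = 0.00016) and -0.56 ± 0.03 with EP300 KD2 (adjusted p = 2.4e-11), and the changes differed by -0.39 ± 0.05 (adjusted p = 8e-07).

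ABCD3, the peroxisomal membrane protein PMP70, averaged 94.7 ± 3.52 CPM in EP300 KD1 and 114 ± 1.16 CPM in NS1, and 97.9 ± 0.410 CPM in EP300 KD2 and 109 ± 3.79 CPM in NS2. It fell with both (-0.27 ± 0.03 and -0.15 ± 0.03, adjusted p = 2.4e-07 and 0.00026). ABCB8, of the mitochondrial inner membrane, fell with EP300 KD1 (-0.35 ± 0.04, adjusted p = 2.4e-07) and had 0.03 ± 0.04 with EP300 KD2 (adjusted p = 0.60), a difference of 0.37 ± 0.05 (adjusted p = 1.3e-05). ABCB10, needed for haem synthesis in red cell precursors, had 0.04 ± 0.04 with EP300 KD1 (adjusted p = 0.44) and rose by 0.24 ± 0.04 with EP300 KD2 (adjusted p = 0.0001). The changes of ABCB10 differed by 0.20 ± 0.06 (adjusted p = 0.011).

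ABCB9, a lysosomal peptide transporter, averaged 9.50 ± 0.274 CPM in EP300 KD1 and 8.45 ± 0.558 CPM in NS1 (0.17 ± 0.07, adjusted p = 0.040). In EP300 KD2 it averaged 6.78 ± 0.189 CPM, against 7.47 ± 0.120 CPM in NS2 (-0.14 ± 0.07, adjusted p = 0.11). The first call was lost when NS1 replicate 1 or 3, or any one of the EP300 KD1 libraries, was left out (adjusted p = 0.061 to 0.14), with DESeq2 (0.13), with no low-count filter (0.12) and in a fit of the 6 libraries alone (0.067). ABCD4, a lysosomal partner in cobalamin export, has 2 accession rows and 4 to 16 counts per library in the tested one, so its counts are residual. Its change with EP300 KD2 was 0.78 ± 0.42 (adjusted p = 0.12) and passed only without NS2 replicate 2 (1.62, adjusted p = 0.0065).

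The soluble members were abundant and nearly level. ABCE1, which splits ribosomes after termination, averaged 276 ± 9.21 CPM in EP300 KD1 and 299 ± 3.49 CPM in NS1, and 340 ± 7.63 CPM in EP300 KD2 and 314 ± 1.47 CPM in NS2. It thus fell with EP300 KD1 (-0.12 ± 0.03, adjusted p = 0.00053) and rose with EP300 KD2 (0.11 ± 0.03, adjusted p = 0.00079). Of its exon bases 19.0% overlap ANAPC10 and OTUD4 on the opposite strand, so its counts are uncertain. ABCF2 had 0.04 ± 0.03 with EP300 KD1 (adjusted p = 0.20) and rose by 0.18 ± 0.03 with EP300 KD2 (adjusted p = 1.2e-05). Its row was matched by gene ID through GENCODE, and the RefSeq gene table lists the same accession under the readthrough ABCF2-H2BK1. ABCF3 passed in neither comparison (0.05 ± 0.03 and -0.02 ± 0.03, adjusted p = 0.14 and 0.66).

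Levels of different genes are comparable only per transcript length. As CPM per kilobase averaged over the 12 libraries, ABCC3 (79.4), ABCE1 (78.4) and ABCF2 (70.7) were highest, followed by ABCD3 (29.4), ABCF3 (28.1), ABCC2 (17.4) and ABCB6 (17.3). ABCC4 stood at 4.35, ABCG1 at 3.59, ABCG2 at 2.67 and ABCC1 at 1.84. The order of the top 3 was not the same in every group: EP300 KD2 had ABCE1 at 86.8, ABCF2 at 75.6 and ABCC3 at 60.6, while NS2 had ABCC3 at 95.2, ABCE1 at 80.2 and ABCF2 at 66.8. ABCA1 stood at 0.572, and ABCA13 and ABCA4 were last at 0.0332 and 0.0282. ABCG2 per kilobase was 0.844 ± 0.0578 in EP300 KD1 and 4.50 ± 0.255 in NS1, and ABCC4 was 6.32 ± 0.195 in EP300 KD1 and 2.25 ± 0.0715 in NS1. The order of these 2 pumps was thus reversed between EP300 KD1 and NS1.

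**Figure D3:**
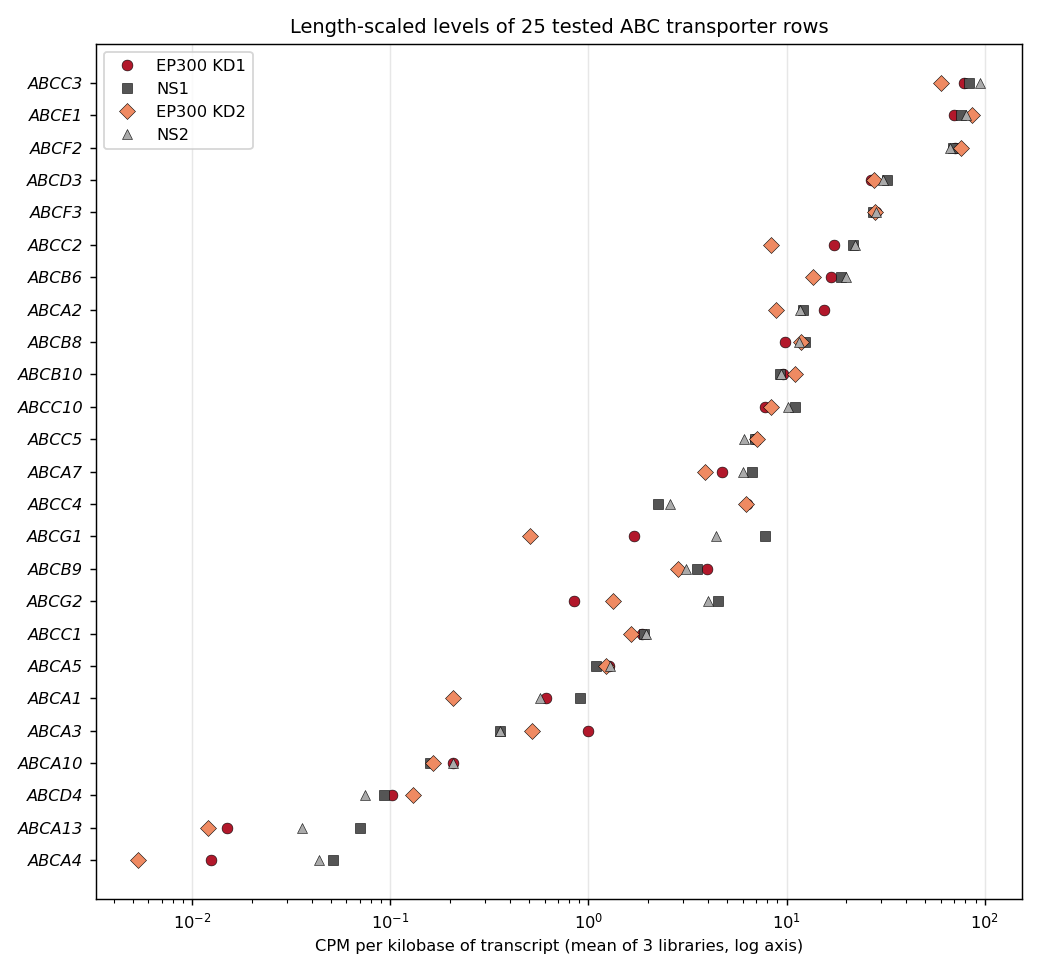
CPM per kilobase of transcript (log axis) of the 25 tested member rows, as the mean of 3 libraries in EP300 KD1, NS1, EP300 KD2 and NS2, ordered by the mean over all 12 libraries. The levels run from 79.4 for ABCC3 to 0.0282 for ABCA4. Wide gaps between knockdown and control are seen for ABCG1, ABCG2 and ABCC4 with both hairpins. They are also seen for ABCC2 and ABCA1 with EP300 KD2, for ABCA3 with EP300 KD1, and for ABCA4 and ABCA13 at very low counts.

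The control lines differed as well. NS2 against NS1 passed for 10 of 25 members, 5 higher and 5 lower, against 27.5% of all rows, with 14.2% higher and 13.4% lower among all rows. That count rested on single libraries: without NS2 replicate 3 it was 1 higher and 4 lower, and without NS2 replicate 2 it was 2 higher and 3 lower. No member was called with a change of at least 2-fold (1.3% of all rows). Besides ABCG1, ABCA1 and ABCA13, the changes passing the test lay between -0.17 (ABCC5) and 0.22 (ABCA5). In bulk RNA, fewer cells of one kind and less RNA per cell cannot be told apart. For 10 mammary epithelial markers 10 rows were tested, of which 8 fell and 2 rose with EP300 KD1 and 9 fell with EP300 KD2. Summed over all 11 rows of these markers, tested or not, the level was 5510 to 5564 CPM in EP300 KD1 and 7705 to 7923 CPM in NS1. In EP300 KD2 it was 4713 to 4814 CPM, against 8846 to 8963 CPM in NS2. KRT5, a basal keratin, changed by -0.71 ± 0.02 with EP300 KD1 and -1.26 ± 0.02 with EP300 KD2 in log2, and E-cadherin (CDH1) by -0.86 ± 0.02 and -1.06 ± 0.02. The part of these markers in the ABC results was not tested.

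Of 9 leukocyte markers 3 could be tested, and MS4A1 had 0 CPM in every group. CD68 rose and CD14 fell with both hairpins, and the summed list lay at 67.6 to 74.7 CPM in EP300 KD1 and 52.4 to 63.4 CPM in NS1, and at 37.9 to 40.2 CPM in EP300 KD2 and 65.9 to 67.7 CPM in NS2. Of 8 fibroblast markers 4 could be tested: all 4 rose with EP300 KD1 and 2 with EP300 KD2, while COL1A2, COL3A1 and LUM had 0 CPM in every group. The fibroblast sum was 109 to 112 CPM in EP300 KD1 and 56.4 to 59.2 CPM in NS1, and 56.4 to 58.3 CPM in EP300 KD2 and 48.5 to 52.8 CPM in NS2. Endothelial markers summed to 13.1 to 15.7 CPM in EP300 KD1 and 28.8 to 32.9 CPM in NS1, and to 6.40 to 7.04 CPM in EP300 KD2 and 38.6 to 40.6 CPM in NS2; of 3 tested, 2 rose and 1 fell with EP300 KD1, and 1 rose and 1 fell with EP300 KD2. Hepatocyte markers, listed because several members are liver pumps, summed to 56.5 to 57.8 CPM in EP300 KD1 and 17.7 to 22.6 CPM in NS1, and to 15.7 to 20.0 CPM in EP300 KD2 and 13.5 to 17.4 CPM in NS2. SERPINA1 rose and FGB fell with both hairpins, and ALB averaged at most 0.0686 CPM in any group. The part of these lists was likewise not tested.

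Genes of the pathways around these pumps were read from lists chosen by function, and their counts stand beside the same shares over all rows, 32.6% higher and 32.3% lower with EP300 KD1 and 27.9% and 29.9% with EP300 KD2. In the sterol list (liver X receptors, their partners and targets, and sterol synthesis and uptake), 4 of 16 tested genes rose and 5 fell with EP300 KD1, and 0 rose and 10 fell with EP300 KD2. RXRA, the partner receptor of liver X receptors, averaged 155 ± 3.40 CPM in EP300 KD1 and 217 ± 9.68 CPM in NS1 (-0.48 ± 0.03), and 148 ± 2.92 CPM in EP300 KD2 and 213 ± 5.23 CPM in NS2 (-0.52 ± 0.03). SREBF1, a regulator of lipid synthesis and a liver X receptor target, fell by a log2 change of -0.61 ± 0.04 with EP300 KD1 and -0.69 ± 0.04 with EP300 KD2. SCD, a fatty acid desaturase, rose with EP300 KD1 (0.19 ± 0.02, adjusted p = 7.7e-09) and fell with EP300 KD2 (-0.33 ± 0.02, adjusted p = 3.3e-12).

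In the xenobiotic-sensing list, 4 of 10 tested genes rose and 4 fell with EP300 KD1, and 2 rose and 5 fell with EP300 KD2. AHR, the dioxin receptor, averaged 61.8 ± 2.06 CPM in EP300 KD1 and 139 ± 2.39 CPM in NS1 (-1.17 ± 0.03), and 59.2 ± 1.20 CPM in EP300 KD2 and 132 ± 3.92 CPM in NS2 (-1.16 ± 0.03). CYP1B1, a cytochrome P450 induced through that receptor, moved the other way, at 231 ± 14.8 CPM in EP300 KD1 and 44.5 ± 1.03 CPM in NS1 (2.38 ± 0.04), and at 169 ± 4.25 CPM in EP300 KD2 and 81.1 ± 1.87 CPM in NS2 (1.06 ± 0.04). ARNT, the partner of AHR, rose with EP300 KD1 (0.36 ± 0.04) and had 0.06 ± 0.04 with EP300 KD2 (adjusted p = 0.21). NFE2L2 (NRF2), which drives antioxidant response elements, fell with both, at 176 ± 1.93 CPM in EP300 KD1 and 207 ± 3.51 CPM in NS1 (-0.24 ± 0.03, adjusted p = 1e-06), and at 151 ± 5.34 CPM in EP300 KD2 and 219 ± 7.78 CPM in NS2 (-0.54 ± 0.03, adjusted p = 1e-11).

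Of 18 tested enzymes of conjugation and glutathione supply, which make the conjugates exported by ABCC pumps, 4 rose and 10 fell with EP300 KD1 (32.6% and 32.3% of all rows), and 3 rose and 12 fell with EP300 KD2 (27.9% and 29.9%). All 5 genes named here fell with both hairpins. GSR, glutathione reductase, changed by -0.55 ± 0.03 with EP300 KD1 and -0.50 ± 0.03 with EP300 KD2. The glutathione transferases GSTK1 (-0.45 ± 0.03 and -0.27 ± 0.03) and GSTP1 (-0.28 ± 0.02 and -0.22 ± 0.02) also fell with EP300 KD1 and with EP300 KD2. GCLC and GCLM, the subunits of the enzyme that begins glutathione synthesis, changed by -0.10 ± 0.02 and -0.28 ± 0.03 with EP300 KD1, and by -0.63 ± 0.02 and -0.49 ± 0.03 with EP300 KD2. Of 13 tested uptake carriers of the SLC families, 6 rose and 6 fell with EP300 KD1, and 4 rose and 6 fell with EP300 KD2. SLCO1B3, an organic anion uptake carrier, averaged 3.49 ± 0.230 CPM in EP300 KD1 and 21.4 ± 0.608 CPM in NS1 (-2.61 ± 0.07), and 3.71 ± 0.225 CPM in EP300 KD2 and 18.9 ± 0.418 CPM in NS2 (-2.35 ± 0.07). SLC29A2, a nucleoside carrier, fell with both (-0.65 ± 0.05 and -0.46 ± 0.04), SLC22A4, a carrier of ergothioneine, rose with both (0.95 ± 0.09 and 0.71 ± 0.09), and SLC31A1, the copper and platinum drug carrier, fell with both (-0.14 ± 0.03 and -0.44 ± 0.03).

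Around ABCD3, 1 of 18 tested peroxisome genes rose and 6 fell with EP300 KD1, and 1 rose and 10 fell with EP300 KD2. CAT, catalase, changed by -0.50 ± 0.03 with EP300 KD1 and -0.53 ± 0.03 with EP300 KD2. Around the mitochondrial members, 5 of 14 tested genes of haem and iron-sulfur synthesis rose and 5 fell with EP300 KD1, and 5 rose and 3 fell with EP300 KD2. ALAS1, the first enzyme of haem synthesis, rose to 65.4 ± 1.55 CPM in EP300 KD1, against 34.5 ± 0.655 CPM in NS1 (0.92 ± 0.03), and to 59.3 ± 2.13 CPM in EP300 KD2, against 38.2 ± 0.0490 CPM in NS2 (0.63 ± 0.03). CPOX, a later enzyme of that pathway, rose by 0.42 ± 0.05 and 0.40 ± 0.04. Around ABCE1, 5 of 13 tested genes of ribosome recycling and rescue rose and 5 fell with EP300 KD1, and 2 rose and 2 fell with EP300 KD2. EIF2AK4 (GCN2), a kinase that senses stalled translation, rose with both (0.38 ± 0.03 and 0.12 ± 0.03), and ZNF598, which marks collided ribosomes, fell with both (-0.27 ± 0.04 and -0.26 ± 0.04). Of 8 tested ABC genes outside the list of 30, 3 rose and 2 fell with EP300 KD1, and 1 rose and 4 fell with EP300 KD2. ABCA6, a subfamily A neighbour of ABCA5 and ABCA10, averaged 15.1 ± 0.487 CPM in EP300 KD1 and 22.7 ± 1.06 CPM in NS1 (-0.58 ± 0.07), and 7.23 ± 0.999 CPM in EP300 KD2 and 22.7 ± 0.797 CPM in NS2 (-1.65 ± 0.07).

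**Figure D4:**
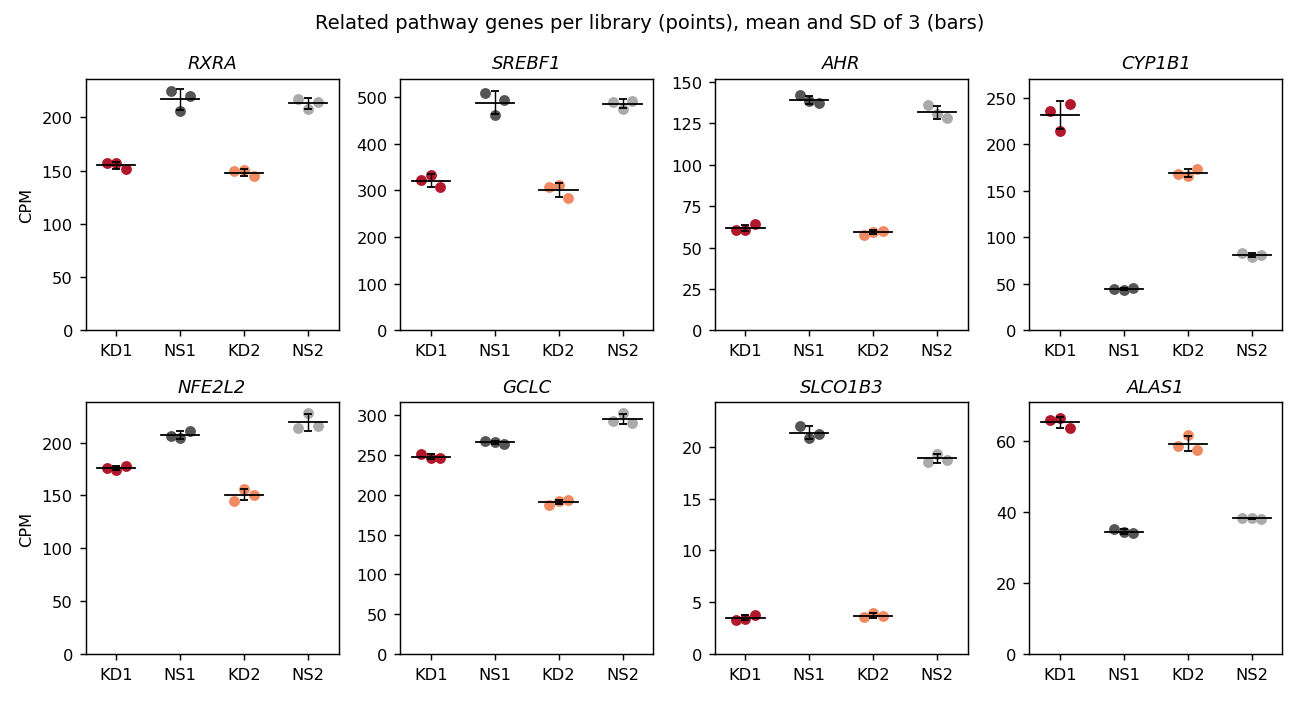
CPM of 8 pathway genes in each library (points), with the mean and SD of 3 libraries (bars); each panel has its own axis from 0. AHR lies near 60 CPM and SLCO1B3 under 4 CPM in the knockdown groups, below both controls, while CYP1B1 and ALAS1 lie above both controls.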

How the data were processed

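Whole-number counts per RefSeq accession were used as deposited, not normalised; the authors used HISAT2 2.1.0, hg38 and featureCounts, per the submitters' processing notes. How strand, multi-mapping reads and overlapping genes were handled, and from which annotation, is not given in the sources used here. Symbols came from a RefSeq gene table (28134 accessions) and GENCODE (486 more), and 474 rows had none. Members, lists and tests were chosen with earlier results of these data known. Of 29094 rows, 13424 passed filterByExpr (edgeR 4.0.16, R 4.3.3, minimum count 10). The quasi-likelihood model had 1 coefficient per group over all 12 libraries with TMM scaling, and adjusted p is Benjamini-Hochberg over those rows, threshold 0.05. SEs were derived from the F statistic and log2 change. Per-library values are given for the efflux pumps, members called with an absolute log2 change of at least 0.5 with either hairpin, and EP300; of each list, up to 3 genes per comparison with the smallest p are named, apart from genes not reported here. All 12 libraries were kept, since replicate pairs differed beyond counting noise (chi-square over its degrees of freedom 1.81 to 4.31). Depth (31396653 to 45606950 counts) limits members under about 20 counts. Alternatives were other scalings, DESeq2 1.42.0, limma-voom (limma 3.58.1), other filters, fewer or pooled groups, symbols with 1 row only, a replicate block and each library left out; scaling by library totals was chosen after seeing the data.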

Additional observations from a re-analysis of the deposited data

Results flagged for a closer look

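For 18 members the change differed between the hairpins, by a test of the difference itself, (EP300 KD2 minus NS2) minus (EP300 KD1 minus NS1), in edgeR's quasi-likelihood fit with adjusted p under 0.05. A negative log2 value means a lower change with EP300 KD2. The differences were -1.10 for ABCC2, -0.94 for ABCA3, -0.92 for ABCG1, -0.87 for ABCA1, -0.75 for ABCA10, -0.74 for ABCA2, -0.56 for ABCC3, -0.39 for ABCB6, -0.31 for ABCB9 and -0.22 for ABCC4. They were 0.12 for ABCD3, 0.14 for ABCF2, 0.20 for ABCB10, 0.21 for ABCC5, 0.21 for ABCC10, 0.23 for ABCE1, 0.37 for ABCB8 and 0.84 for ABCG2. The differences of ABCA10, ABCB9, ABCC4, ABCC5 and ABCD3 were lost under some alternatives. ABCG2 and ABCC2 thus stood at opposite ends, with the larger ABCG2 fall in EP300 KD1 and the larger ABCC2 fall in EP300 KD2. Over all tested rows 50.8% passed the same test.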

How the results depend on the processing

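No called member reversed in any alternative. In the EP300 KD1 comparison 543 of 570 member values kept their side of the threshold, with EP300 KD2 566 of 570, and for the difference between hairpins 497 of 520. Values that never passed could change sign and still count as kept, as ABCC5 did with EP300 KD1 (-0.04 to 0.09). The count of members higher with EP300 KD1, 5 in the report, was 8 with upper-quartile scaling, 3 with DESeq2 and 3 with no low-count filter, and 3 to 5 when 1 library was left out. For NS2 against NS1, members higher (5 in the report) were 2 with upper-quartile scaling, library totals, DESeq2 or no filter, and members lower (5) were 10 with upper-quartile scaling and 9 with library totals; leaving out 1 library gave 1 to 5 higher and 3 to 6 lower. Differences between hairpins were lost for ABCB9 without NS1 replicate 3 (adjusted p = 0.0502), with library totals (0.0545), DESeq2 (0.0798) or no filter (0.125), for ABCC5 without NS2 replicate 2, EP300 KD1 replicate 1 or EP300 KD2 replicate 1 (0.056 to 0.071), and for ABCD3 without any one of 6 libraries (0.051 to 0.082). The ABCA5 difference passed without EP300 KD2 replicate 3 (-0.31, adjusted p = 0.038), and with both controls pooled the ABCB9 change with EP300 KD2 passed (-0.23, adjusted p = 0.013). With library totals the share of higher calls among all rows called was 61.3%, against 48.2% with TMM, in EP300 KD2 against NS2, and 54.8%, against 42.6%, for the difference between hairpins. The replicate block moved no member call in the hairpin comparisons (13 lower and 5 higher with EP300 KD1, 13 lower and 6 higher with EP300 KD2). Same-numbered libraries did not deviate together (correlations -0.04 to 0.02). That cannot show whether they were made together, which is not given in the sources used here. Causes were not tested. Members under about 20 counts per library (ABCA4, ABCD4) have wide errors, and 5 members could not be tested.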
